A study of Mus musculus with 24 samples.

Results

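The Frizzled receptors are the 10 genes Fzd1 to Fzd10, chosen by name after 1 of them, Fzd10, was seen to be lower in neural stem cells (NSCs) with the MommeD43 allele of Smchd1 on the FVB background. All 10 were listed among the 14922 genes of the table, and all 10 were kept, with no filter on low values. The cells were primary NSCs from mouse cortex at E14.5, grown as an adherent monolayer with EGF and FGF, harvested below 10 passages and labelled female, and 100 ng of RNA went into each library. FVB_WT cells were Smchd1 wild type on FVB/NJ (6 libraries of 5 lines), and FVB_MD43 cells were homozygous for the chemically induced MommeD43 allele on the same background (5 libraries of 4 lines). B6GFP_WT cells came from the C57BL/6J background and were labelled wild type for Smchd1, although the study describes their Smchd1 as homozygous for a GFP fusion (6 libraries of 4 lines). B6GFP_MD43 cells carried the same point change, remade by genome editing in the Smchd1-GFP line, and were homozygous for it (5 libraries of 4 lines). Every B6GFP library therefore carries the fusion as well as the other strain, and effects of strain and fusion cannot be told apart. A line is the culture that a replicate number names, and libraries of the same line were treated as technical repeats.

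Frizzled proteins are receptors with a membrane-spanning core and an extracellular cysteine-rich domain that binds Wnt ligands. With the co-receptors Lrp5 and Lrp6 they recruit Dishevelled and stabilise beta-catenin, which acts on target genes with TCF/LEF factors, and some members also work in planar cell polarity, the alignment of cells within a sheet. In the embryonic cortex Wnt signalling is known for its part in progenitor division and dorsal patterning. By sequence the family falls into Fzd1, Fzd2 and Fzd7, Fzd5 and Fzd8, Fzd3 and Fzd6, and Fzd4, Fzd9 and Fzd10. Smchd1 is a chromosomal protein that takes part in gene silencing on the inactive X chromosome and at clustered genes.

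Before the values, 4 stretches of sequence show the starts of the members that differed most between groups. They are parts of the 250 bases before the RefSeq gene start on GRCm38.p6, written 5′ to 3′ on the gene's strand. Such a window was found for 6 of the 10 members. Capitals mark the GC box (GGGCGG or its complement) and the TCF/LEF core (CTTTGA or its complement), searched on both strands with overlapping matches counted. GENCODE M21 begins Fzd9 and Fzd10 further upstream than RefSeq does, so for Fzd9 the bases outside both gene models are given and for Fzd10 a 30-base stretch around its GC box.
Fzd7, plus strand, chr1:59481897-59482146: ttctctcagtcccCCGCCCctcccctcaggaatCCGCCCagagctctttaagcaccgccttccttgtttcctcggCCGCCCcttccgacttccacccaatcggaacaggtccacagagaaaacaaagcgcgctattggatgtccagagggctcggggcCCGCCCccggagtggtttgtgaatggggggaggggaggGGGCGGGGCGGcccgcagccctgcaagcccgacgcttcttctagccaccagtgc
Fzd1, minus strand, chr5:4758217-4758466: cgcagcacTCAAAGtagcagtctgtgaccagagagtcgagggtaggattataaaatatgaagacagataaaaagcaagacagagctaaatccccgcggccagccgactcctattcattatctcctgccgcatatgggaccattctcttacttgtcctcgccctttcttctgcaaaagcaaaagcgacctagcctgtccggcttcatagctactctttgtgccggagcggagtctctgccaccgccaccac
Fzd9, minus strand, chr5:135251231-135251297: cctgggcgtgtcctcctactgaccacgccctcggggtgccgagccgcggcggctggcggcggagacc
Fzd10, plus strand, chr5:128601022-128601051: tcccctcccccgCCGCCCcccgactccgct
The windows differed in base composition. Fzd9 and Fzd10 were rich in CpG, with 42 and 37 CpG dinucleotides in the 250 bases, more than in 99.1% and 97.8% of the 32851 windows of all genes. The Fzd1 window held 12 CpG, and the median window held 6. GC boxes numbered 9 in the Fzd5 window, 7 in Fzd4, 6 in Fzd7, 1 in Fzd9, 1 in Fzd10 and 0 in Fzd1, and 32.7% of all windows held at least 1. The TCF/LEF core was present in the Fzd1 window and in none of the other 5, against 13.8% of all windows. The palindrome CACGTG was present in the Fzd9 window alone of the 6, against 6.02% of all windows. These matches describe letters in a window and are not binding sites.

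RNA was measured as log2 CPM (read counts scaled to the size of the library, on the log2 scale, already corrected for batch by the authors). Of 24 labelled libraries, 2 columns equalled the mean of their group mates in every gene and were left out: FVB_MD43 replicate 3 and the batch 1 library of B6GFP_MD43 replicate 2. Batch 1 held both strains, batch 2 FVB only and batch 3 B6GFP only. Batch 2 was the shallowest, with libraries at 0.137 to 0.19 of the depth of the deepest one, where batch 1 reached 0.526 to 0.893 and batch 3 ranged from 0.435 upwards. Absolute depth is unknown. The NSC markers Nes and Sox2 were high in every group, with group means of 9.82 to 10.49 log2 CPM for Nes and 7.64 to 8.19 for Sox2. Others on the list of 8 lay lower, with group means of 4.80 to 5.05 for Pax6, 4.32 to 5.89 for Hes1 and 4.07 to 5.30 for Prom1. The NSC markers also differed by strain. In wild-type cells 7 of the 8 were called, 2 higher and 5 lower in B6GFP, where 41.1% of all genes were called. Nes differed by 0.67 and Sox2 by -0.40. Smchd1 RNA itself changed by 0.05 (log2, SE 0.0597) with MommeD43 in FVB and by -0.01 (SE 0.0776) in B6GFP, and neither passed the threshold. Between strains Smchd1 RNA was lower in B6GFP, with differences of -0.22 (SE 0.0676) in wild-type and -0.28 (SE 0.0796) in MommeD43 cells, and both passed. Of the libraries, 2 stood apart by their markers. B6GFP_MD43 replicate 2 held neuronal Tubb3 at 6.48 log2 CPM where the next highest line was at 3.85, Neurod6 at 3.03 and endothelial Cdh5 at 0.65. B6GFP_WT replicate 4 held Gfap at 2.72 and Foxc1 at 5.67. Their quality weights in the fit were the lowest of all, 0.158 and 0.101, and results are given without them where they matter.

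Fzd10 was the member that differed between the FVB groups. Its lines lay at 5.87, 6.15, 5.95, 5.83 and 5.61 log2 CPM in FVB_WT and at 4.60, 5.32, 4.96 and 4.90 in FVB_MD43. All 4 MommeD43 lines were below the lowest wild-type line. The fitted difference was -0.90 (log2, SE 0.131), a 1.86-fold lower level. It is given as a description and without a p-value, since Fzd10 was selected on this contrast. In B6GFP_WT the lines lay at 6.69, 6.27, 6.80 and 6.68, and in B6GFP_MD43 at 6.42, 6.61, 6.57 and 5.69. Here the groups overlapped, and the lowest line was replicate 2, which carried the neuronal and endothelial markers. The fitted difference in B6GFP was -0.02 (SE 0.171, 95% confidence interval -0.378 to 0.332), and it did not pass the threshold (limma, unadjusted p = 0.895). An exact two-sided permutation test of the line means over the 70 splits gave p = 0.314 for a difference of -0.29, where the smallest p that 4 against 4 lines allow is 0.0286. The difference between the effects themselves, B6GFP minus FVB, was 0.87 (SE 0.215). It is a description too, since it holds the FVB effect that chose Fzd10. No gene of the table passed the threshold in that comparison (limma, 0% of 14922 tested, 458 with an unadjusted p under 0.05).

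**Figure D1:**
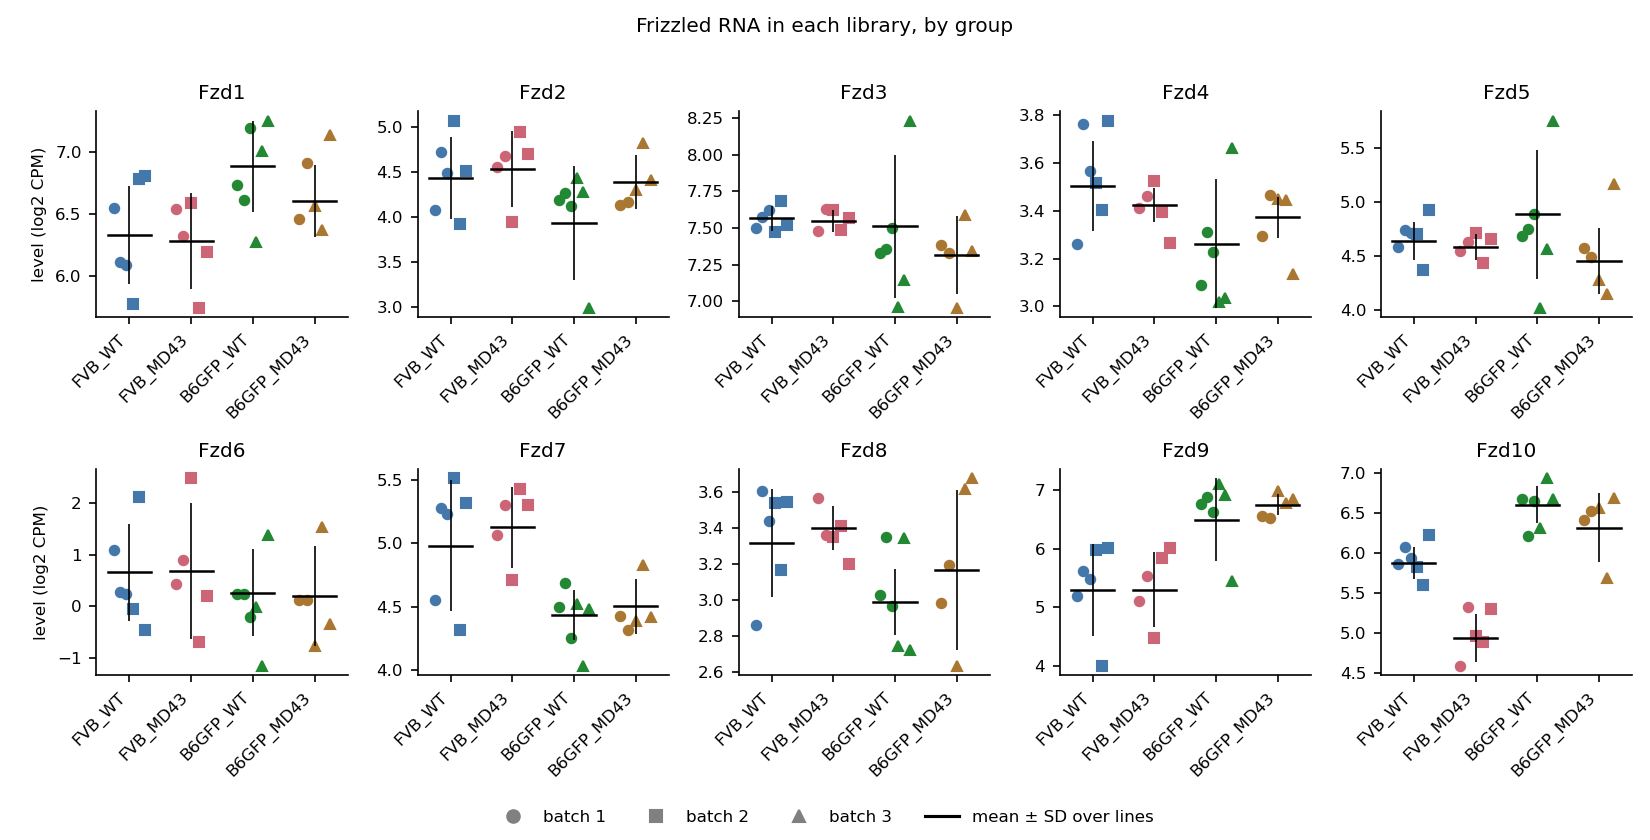
Level of each Frizzled gene in each of the 22 libraries (log2 CPM, y axis, scaled per gene) by group (x axis). Symbols give the batch, and black bars give the mean ± SD over lines. For Fzd10 the FVB_MD43 libraries lie between 4.60 and 5.33, below all FVB_WT libraries (5.61 to 6.23), and Fzd9 lies lower in FVB than in most B6GFP libraries.

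The FVB values of Fzd10 that follow belong to the contrast on which it was selected and support nothing. For the 5 lines sequenced in 2 batches, Fzd10 differed between the repeats by a median of 0.15 and at most 0.281 (log2), and the pooled SD over lines within groups was 0.301. FVB_MD43 replicate 2 gave 5.33 in batch 1 and 5.30 in batch 2, and FVB_WT replicate 2 gave 6.08 and 6.23. The FVB difference was -1.04 in batch 1 alone and -0.83 in batch 2 alone. It was -1.37 without FVB_MD43 replicate 2, the highest line of its group and the one with the largest weight. Repeats were less close for Fzd6, with a median difference of 0.679.

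The other 9 members showed smaller differences between the FVB groups. Their fitted changes ranged from -0.20 for Fzd4 to 0.30 for Fzd6, and the wild-type and MommeD43 lines overlapped for each of the 9. Fzd10 was thus the 1 called member of 10, and 0.0737% of all genes were called in that contrast, from which nothing is read about the family because the contrast chose it. The count of 1 fell to 0 with equal weights for all libraries, in batch 1 or batch 2 alone, and without FVB_WT replicate 2. Fzd3, a receptor of axon guidance and planar polarity, varied little. Its lines lay at 7.50, 7.55, 7.62, 7.48 and 7.68 log2 CPM in FVB_WT and at 7.48, 7.60, 7.62 and 7.49 in FVB_MD43, a fitted change of 0.00 (SE 0.0612).

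With the edited MommeD43 allele in B6GFP, none of the 10 Frizzled genes was called, and neither was any gene of the table (limma, 0% called, with 319 genes and 0 Frizzled members at an unadjusted p under 0.05). This contrast used no library on which the family was selected. The fitted changes ran from -0.18 for Fzd9 to 0.19 for Fzd4, with a median of -0.0488 against 0.011 over all genes. Fzd4, the receptor for the non-Wnt ligand Norrin, lay at 3.09, 3.17, 3.13 and 3.66 in B6GFP_WT and at 3.30, 3.30, 3.45 and 3.45 in B6GFP_MD43. The groups overlapped only through the wild-type replicate 4. The fitted change of Fzd4 was 0.19 (SE 0.103, 95% confidence interval -0.028 to 0.399, unadjusted p = 0.0857), the opposite sign to the -0.20 (SE 0.0789) of the FVB contrast. The widest interval was that of Fzd6, from -0.878 to 0.735, so changes within it were not detectable for that gene.

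**Figure D2:**
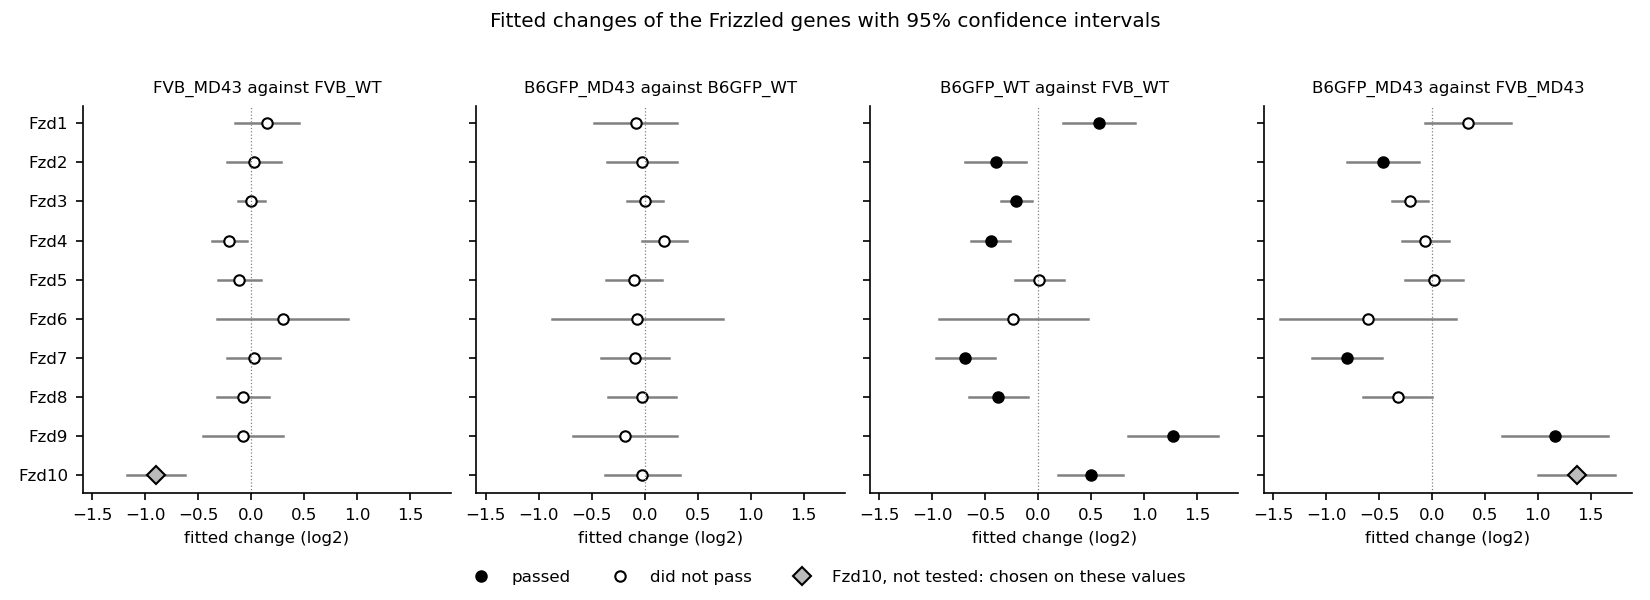
Fitted change of each Frizzled gene (log2, x axis) in the 4 comparisons, with 95% confidence intervals as lines. Black points passed an adjusted p of 0.05 over all genes, white points did not, and grey diamonds are Fzd10 where its own FVB_MD43 values chose it, with no test. No point is black with MommeD43 in FVB or in B6GFP, and 8 and 3 points are black between strains in wild-type and MommeD43 cells. The black Fzd10 point between wild-type strains is a description, since its FVB_WT values belong to the contrast that chose it.

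The strains were compared next. In wild-type cells 8 of the 10 members passed the threshold, 3 higher and 5 lower in B6GFP, with Fzd10 counted among them as a description. Over all genes 41.1% were called there, 17.9% higher and 23.2% lower. In MommeD43 cells 4 members were called, 2 higher and 2 lower, with Fzd10 counted among them as a description, against 34.3% of all genes, 14.7% higher and 19.6% lower. The median change of the 10 members was -0.22 in wild-type and -0.13 in MommeD43 cells, beside -0.0215 and -0.0276 over all genes. With each library centred on its median, 58.6% of the called genes were higher in B6GFP_WT, against 43.7% without centring, and 57.1% against 42.9% in MommeD43 cells. Both comparisons share their FVB libraries with the contrast that chose Fzd10, and all strain differences are between B6GFP and FVB with the fusion included. In bulk RNA fewer cells of a type and less RNA per cell cannot be told apart.

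Fzd9 had the largest strain difference in size among the 9 members other than Fzd10. Fzd9 is a Wnt receptor of neural and bone tissue. Its lines lay at 5.18, 5.81, 5.48, 5.98 and 4.0 log2 CPM in FVB_WT, 5.11, 5.77, 4.47 and 5.84 in FVB_MD43, 6.76, 6.99, 6.77 and 5.45 in B6GFP_WT, and 6.56, 6.68, 6.98 and 6.79 in B6GFP_MD43. The MommeD43 groups did not overlap between strains, and the wild-type groups overlapped through B6GFP_WT replicate 4 alone. The fitted difference was 1.27 (SE 0.205, adjusted p = 5.15e-05) in wild-type cells, a 2.41-fold higher level in B6GFP. In MommeD43 cells it was 1.16 (SE 0.241, adjusted p = 0.000851). In batch 1, the only batch that held both strains, the differences were 1.25 and 1.22, and both passed.

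Fzd10 ran the same way between strains. In wild-type cells its level was 0.49 higher in B6GFP (log2, SE 0.149), and the lines did not overlap. This is given as a description, since the FVB_WT values belong to the contrast that chose the gene. It was the 1 member without overlap between the wild-type groups, where 15.9% of all genes did not overlap. In batch 1 alone the difference was 0.51 and missed the threshold, and it also missed it without B6GFP_WT replicate 1 (0.40) or replicate 3 (0.38). In MommeD43 cells the difference was 1.37 (SE 0.175), given as a description since the low FVB_MD43 values chose the gene. Here Fzd10 and Fzd9 were the 2 members without overlap, and 21.3% of all genes did not overlap.

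Fzd1, Fzd2 and Fzd7 are close relatives by sequence and did not move together. Fzd1 lay at 6.55, 6.46, 6.09, 5.78 and 6.78 in FVB_WT and at 6.73, 6.45, 7.10 and 7.25 in B6GFP_WT, a difference of 0.57 (SE 0.164, adjusted p = 0.00823) with overlapping lines. Fzd7 ran the other way, with 4.55, 5.30, 5.23, 5.51 and 4.32 in FVB_WT and 4.50, 4.60, 4.14 and 4.48 in B6GFP_WT. All 4 B6GFP_WT lines of Fzd7 were below the FVB_WT mean of 4.98, and the ranges overlapped. The fitted difference of Fzd7 was -0.69 (SE 0.135, adjusted p = 0.000369) in wild-type cells. In MommeD43 cells Fzd7 differed by -0.81 (SE 0.159, adjusted p = 0.000541), with lines at 5.06, 5.30, 4.71 and 5.43 in FVB_MD43 and 4.43, 4.37, 4.39 and 4.83 in B6GFP_MD43. Fzd2 was lower in B6GFP (-0.40, SE 0.139, adjusted p = 0.0244) in wild-type cells and differed by -0.46 (SE 0.163, adjusted p = 0.0343) in MommeD43 cells. For Fzd1 in MommeD43 cells the difference was 0.34 (SE 0.193, adjusted p = 0.18). In batch 1 alone the wild-type differences were 0.65 for Fzd1, -0.36 for Fzd2 and -0.68 for Fzd7, and all 3 passed.

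The remaining members showed smaller strain differences. Fzd4 was lower in B6GFP_WT (-0.45, SE 0.0894, adjusted p = 0.000414), and in MommeD43 cells its difference was -0.06 (SE 0.105, adjusted p = 0.69). Fzd8 differed by -0.38 in wild-type cells (SE 0.134, adjusted p = 0.0283) and by -0.32 in MommeD43 cells (SE 0.157, adjusted p = 0.117). Fzd3 differed by -0.21 (SE 0.0694, adjusted p = 0.0214) in wild-type cells and by -0.20 (SE 0.0816, adjusted p = 0.0588) in MommeD43 cells. Fzd5, a receptor of eye and gut development, did not pass in either comparison, with 0.01 (SE 0.112) and 0.02 (SE 0.132). Fzd6, a receptor of hair and skin polarity, did not pass either, with -0.24 (SE 0.338) and -0.60 (SE 0.397). The calls of Fzd2, Fzd3 and Fzd8 in wild-type cells were the least firm, since none of the 3 passed once each library was centred on its median (adjusted p = 0.0606, 0.111 and 0.058). With equal weights for all libraries no member other than Fzd10 stayed called in wild-type cells, and Fzd9 gave 1.24 (adjusted p = 0.0651). Fzd10 gave 0.67 there, as a description.

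Markers of other cell types moved with strain, and their part in these differences was not tested. All 5 astrocyte markers (Gfap, Aqp4, S100b, Aldh1l1 and Gja1) were lower in B6GFP, with a median change of -1.70 in wild-type and -2.14 in MommeD43 cells. The summed astrocyte level ran over lines from 7.56 to 8.07 log2 CPM in FVB_WT, 7.90 to 8.09 in FVB_MD43, 6.76 to 7.57 in B6GFP_WT and 6.83 to 7.27 in B6GFP_MD43. The summed level of the mesenchymal and meningeal markers, 4 of 6 listed, was 1.65 to 1.97 in FVB_WT, 1.67 to 2.19 in FVB_MD43, 3.53 to 5.68 in B6GFP_WT and 2.37 to 4.42 in B6GFP_MD43. The higher sums came with Foxc1 (2.62 in wild-type and 2.13 in MommeD43 cells), the 1 of the 4 that was called higher. Col1a1 was called lower (-2.003 and -1.40), Col3a1 and Dcn did not pass, and these 3 had group means below 1 CPM in every group. Of the other lists, the neuron list summed to 9.58 to 9.82 in FVB_WT and 9.62 to 9.85 in B6GFP_WT, and the endothelial and pericyte list to 1.085 to 1.94 and 0.215 to 2.145. The neuron sum is mostly Map2, with group means of 9.68 in FVB_WT and 9.76 in B6GFP_WT, and hides the other members. Of the 7 neuron markers 2 were called between the wild-type strains, both lower in B6GFP: Dcx (-1.90, SE 0.386) and Rbfox3 (-1.03, SE 0.315). No marker of the lists was called in either MommeD43 contrast. With B6GFP_MD43 replicate 2 and B6GFP_WT replicate 4 left out together, the difference of Fzd10 between the wild-type strains was 0.47, as a description. The MommeD43 difference of Fzd10 was then 0.04 in B6GFP, which did not pass, and -0.89 in FVB.

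Levels were compared between members only per length, as log2 CPM per kb of GENCODE exon sequence. The union of exons ran from 2.29 kb for Fzd9 to 12.8 kb for Fzd3, and 6 of the 10 genes are single-exon in this annotation. In FVB_WT, Fzd1 (4.26 ± 0.40, SD over 5 lines), Fzd10 (4.18 ± 0.20), Fzd9 (4.09 ± 0.78) and Fzd3 (3.89 ± 0.09) were highest, and the order among these 4 was not kept in every line. Next came Fzd7 at 2.80 ± 0.52, below Fzd3 in all 5 lines without overlap, and Fzd2 at 2.56 ± 0.46. Fzd5 followed at 1.85 ± 0.18, Fzd4 and Fzd8 lay together at 0.75 and 0.74, and Fzd6 was lowest at -1.61 ± 0.94. In FVB_MD43 Fzd10 came after Fzd3 in all 4 lines without overlap and before Fzd7 in 3 of 4. This place is a description, since it restates the low values that chose the gene. Fzd8 came before Fzd4 there in 3 of 4 lines. In both B6GFP groups Fzd9 led, ahead of Fzd10 in 3 of 4 wild-type lines and in 4 of 4 MommeD43 lines. As a share of the summed Frizzled level per length, Fzd10 made up 19.7% ± 1.4 in FVB_WT, 11.5% ± 1.8 in FVB_MD43, 22.7% ± 2.8 in B6GFP_WT and 20.0% ± 4.5 in B6GFP_MD43. Fzd9 made up 19.8% ± 7.1, 21.7% ± 7.4, 31.7% ± 12 and 37.5% ± 4.2. The summed level itself was 6.53 ± 0.16 (log2 CPM per kb) in FVB_WT, 6.38 ± 0.12 in FVB_MD43, 7.06 ± 0.07 in B6GFP_WT and 6.98 ± 0.10 in B6GFP_MD43. These shares depend on the exon lengths used, and the FVB shares of Fzd10 restate the values on which it was selected and support nothing.

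Within groups the members varied in pairs. After the group mean was subtracted, Fzd2 and Fzd9 rose and fell together over the 17 lines (r = 0.88, rho = 0.85, and r = 0.80 without the 2 lines farthest in Fzd2), and Fzd2 and Fzd7 gave r = 0.67 (rho = 0.74). Fzd1 ran against Fzd2 (r = -0.75, rho = -0.79), Fzd7 (r = -0.75, rho = -0.75) and Fzd9 (r = -0.72, rho = -0.73). Fzd6 ran against Fzd9 (r = -0.80, rho = -0.72, and r = -0.66 without the 2 farthest lines). The lines with the highest Fzd6 show this directly. FVB_MD43 replicate 4 had Fzd6 at 2.48 and Fzd9 at 4.47 log2 CPM, FVB_WT replicate 5 had 2.11 and 4.0, and B6GFP_WT replicate 4 had 1.38 and 5.45, each the lowest Fzd9 of its group. B6GFP_MD43 replicate 2 had Fzd6 at 1.53 and Fzd9 at 6.79, which was not low. Fzd10 was weakly related to the other 9 members, with r from -0.43 (Fzd6) to 0.48 (Fzd5). These correlations describe 17 points that share batches and quality differences and carry no test.

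**Figure D3:**
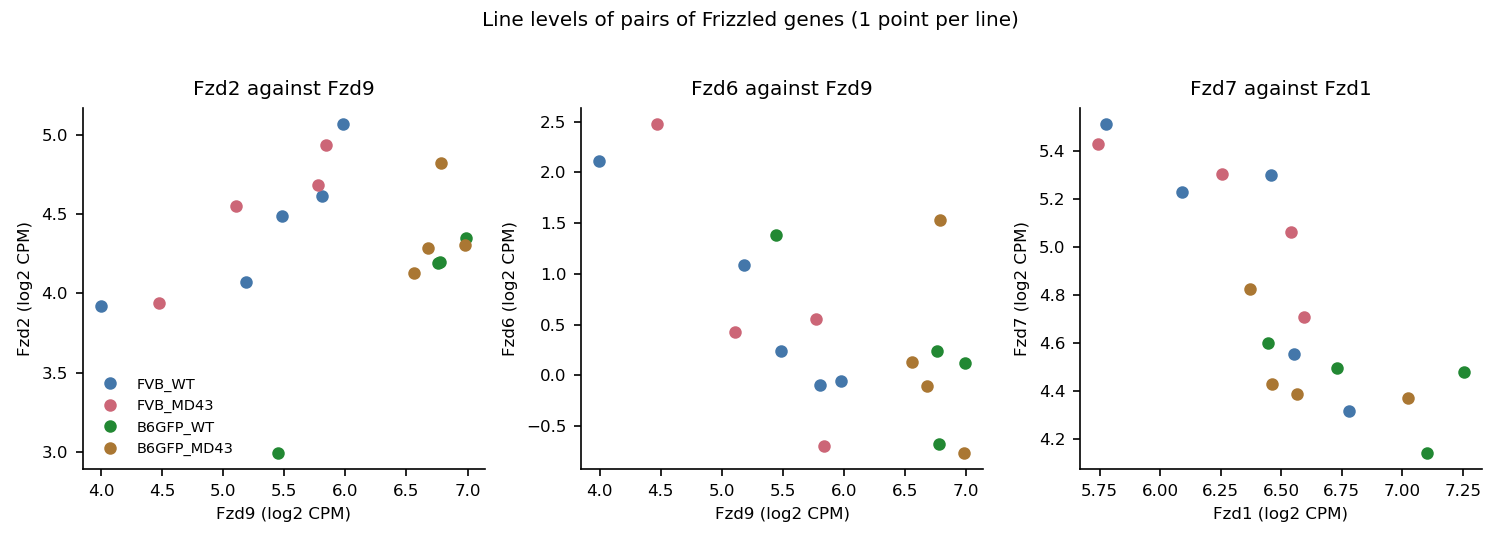
Levels (log2 CPM on both axes) of Fzd2 and Fzd6 against Fzd9, and of Fzd7 against Fzd1, with 1 point for each of the 17 lines coloured by group. Within groups Fzd2 is high where Fzd9 is high (r = 0.88 after subtracting the group means), Fzd6 is high where Fzd9 is low (r = -0.80), and Fzd7 is low where Fzd1 is high (r = -0.75).

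The gene whose levels followed Fzd10 most closely over the line means was S100a10, a calcium-binding family protein (r = 0.91 over 17 lines, among 12842 genes with a mean above 0 log2 CPM), followed by Gtf3c6 (r = 0.893), Ccdc85a (r = 0.871), H2-Ab1 (r = 0.867) and 5930412G12Rik (r = 0.864). S100a10 had group means of 6.53 in FVB_WT, 5.74 in FVB_MD43, 8.90 in B6GFP_WT and 7.99 in B6GFP_MD43, so this likeness follows the groups. After subtracting the group means, A2m (r = 0.845), Shisa8 (0.835), 5930412G12Rik (0.82), Epdr1 (0.797) and Acsbg1 (0.789) were closest. These values may rest on 1 line, since Fzd10 was lowest in its group in B6GFP_MD43 replicate 2 (5.69, group median 6.49). In that group the lowest line and the median were 3.95 and 5.28 for A2m, -0.99 and 0.66 for Shisa8, and 1.03 and 3.24 for 5930412G12Rik. They were 6.51 and 7.08 for Epdr1 and 8.14 and 8.50 for Acsbg1. The r without that replicate was not computed. The gene in both lists, 5930412G12Rik, is a long noncoding RNA that RefSeq names Fzd10os. It lies on the minus strand of chromosome 5, head to head with Fzd10 on the plus strand, and 418 bases (RefSeq) or 150 bases (GENCODE M21) separate them. Its level was 2.96 ± 0.71 (SD, 5 lines) in FVB_WT, 1.54 ± 0.64 in FVB_MD43, 3.74 ± 0.12 in B6GFP_WT and 2.902 ± 1.32 in B6GFP_MD43. The FVB difference of 5930412G12Rik was -1.41 (SE 0.289) and missed the threshold (adjusted p = 0.0709), and in B6GFP it was -0.33 (SE 0.376). The gene models do not overlap, but the use of strand in counting is not given in the sources used here, so reads from the shared start region could be assigned to either gene.

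The other 5 neighbours were read in the same way. In the FVB contrast Slc15a4, at -967.8 kb from the Fzd10 gene, gave -0.01 (SE 0.0847), Stx2, at 383.5 kb, gave 0.05 (SE 0.0706), and Ran, at 419 kb, gave 0.01 (SE 0.036). Glt1d1, at -891.7 kb, gave 0.48 (SE 0.236), and Rimbp2, at 156.7 kb and low in every group, gave -0.69 (SE 0.386, 95% confidence interval -1.498 to 0.109). None of these 5 passed with MommeD43 in either strain. Between strains Glt1d1 was higher in B6GFP_WT (2.02, SE 0.267, adjusted p = 4.75e-06) and Stx2 lower (-0.50, SE 0.08, adjusted p = 4.4e-05), on either side of Fzd10. Ran was slightly higher (0.18, SE 0.0408, adjusted p = 0.00139), and Slc15a4 and Rimbp2 did not pass. The nearest gene, 5930412G12Rik, differed by 0.13 (SE 0.328) between wild-type strains and did not pass. In MommeD43 cells it was 1.22 higher in B6GFP (SE 0.385, adjusted p = 0.0182).

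**Figure D4:**
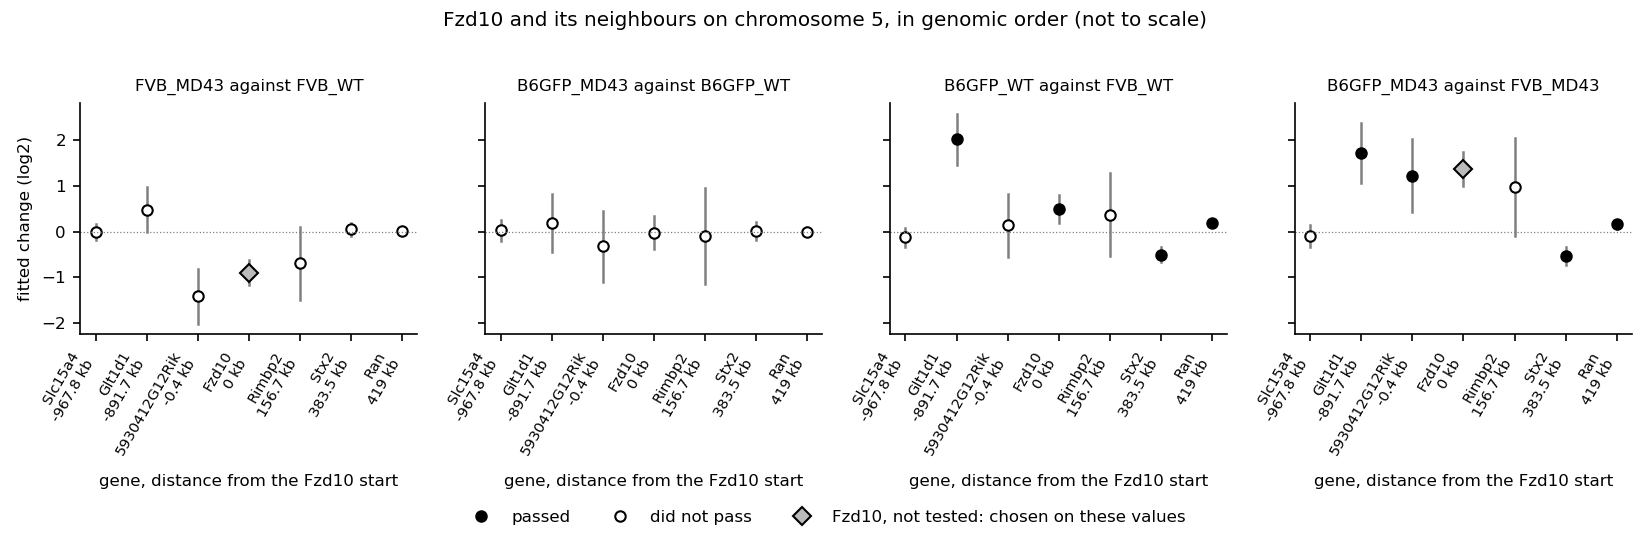
Fitted change (log2, y axis) with 95% confidence intervals of Fzd10 and the 3 nearest listed genes on each side, in genomic order with the distance from Fzd10 in kb, in the 4 comparisons. Black points passed an adjusted p of 0.05, white points did not, and grey diamonds are Fzd10 where its FVB_MD43 values chose it, with no test. Between wild-type strains the Fzd10 point is a description, since its FVB_WT values belong to the contrast that chose it. In the FVB comparison 5930412G12Rik (-1.41) and Fzd10 (-0.90) lie lowest.

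The rest of the Wnt pathway was read from 12 lists of ligands, receptors, inhibitors and signalling parts that hold 115 genes, of which 89 were listed. None of the 89 was called with MommeD43 in FVB or in B6GFP (limma, 8 and 1 at an unadjusted p under 0.05), with median changes of -0.00309 and 0.00344. Among the ligands Wnt5a and Wnt7a had the highest levels, and their MommeD43 changes were -0.07 (SE 0.14) and -0.10 (SE 0.0592) in FVB and 0.09 (SE 0.181) and -0.04 (SE 0.077) in B6GFP. The common target genes Ccnd1 and Myc gave 0.05 (SE 0.0689) and -0.01 (SE 0.0609) in FVB. Ctnnb1, which encodes beta-catenin, gave 0.02 in both strains (SE 0.0319 and 0.0415). Leaving out FVB_MD43 replicate 2 raised the count of the 89 in FVB from 0 to 8, and leaving out B6GFP_MD43 replicate 3 raised that in B6GFP from 0 to 2. The counts over all 14922 genes rose in the same fits, from 11 to 976 in FVB and from 0 to 139 in B6GFP. Nothing is therefore read about the pathway from these rises.

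Between strains 38 of the 89 pathway genes were called in wild-type cells, 20 higher and 18 lower in B6GFP, and 31 in MommeD43 cells, 13 higher and 18 lower. Over all genes 41.1% and 34.3% were called. Of the 9 listed Wnt ligands 4 were called in wild-type cells. Wnt7b, a ligand of forebrain progenitors and neurons, fell from 5.64 ± 0.49 (SD) log2 CPM in FVB_WT to 4.03 ± 0.46 in B6GFP_WT (difference -1.67, SE 0.236, adjusted p = 1.12e-05). Wnt3 differed by -0.85 and Wnt7a by -0.24, while Wnt4 was 1.10 higher. Wnt3 and Wnt4 were low, with means of -1.48 and -0.19 log2 CPM in FVB_WT and -2.20 and 1.26 in B6GFP_WT. Wls, which carries Wnt proteins to the cell surface, was 0.46 higher (SE 0.17). Of 7 listed inhibitors, the secreted Sfrp1 (-1.16, SE 0.154) and Dkk3 (-0.997, SE 0.184) were lower. Kremen1 (0.83, SE 0.105), a membrane protein that acts with Dickkopf proteins, was higher.

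At the receptor complex, Lrp5 (0.25, SE 0.079) and Lrp6 (0.17, SE 0.0501) were slightly higher in B6GFP_WT, and Reck (-0.37) and Gpc4 (-0.49) were lower. Among the other Wnt receptors Ror2 was higher (0.42, SE 0.0827) and Ryk lower (-0.19, SE 0.0512). Of the Frizzled turnover genes, Znrf3, the ubiquitin ligase that removes Frizzled from the membrane, was 0.31 higher (SE 0.0827), and Shisa6 was 1.45 higher (SE 0.196). Dact1, a partner of Dishevelled, went from 4.48 ± 0.115 in FVB_WT to 7.01 ± 0.39 in B6GFP_WT (2.72, SE 0.0801, adjusted p = 1.65e-16). Dvl2 (-0.32) and Dvl3 (-0.25) were lower. Of 10 listed target genes 3 were called in wild-type cells, all higher in B6GFP, where 41.1% of all genes were called and 17.9% were called higher. They were Ccnd1, a cyclin of G1 (0.66, SE 0.078), Lef1 (1.56, SE 0.341) and Znrf3. Lef1 was low, with means of -1.51 log2 CPM in FVB_WT and -0.11 in B6GFP_WT. Of the planar polarity genes Celsr1 (-0.74, SE 0.167) and Intu (-0.64, SE 0.108) were lower, and Celsr2 (0.25) and Prickle3 (0.51) higher. In MommeD43 cells the differences of Wnt7b (-1.94), Wnt4 (1.66), Sfrp1 (-1.15), Dkk3 (-1.06), Shisa6 (1.53), Dact1 (2.80) and Ccnd1 (0.64) had the same sign and passed again. Lef1 (0.96, SE 0.401, adjusted p = 0.0689), Wnt7a (-0.18), Ror2 (0.18), Ryk (0.00), Celsr2 (0.17) and Prickle3 (0.40) did not pass there, and the difference between the comparisons was not tested for the Wnt pathway genes.

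**Figure D5:**
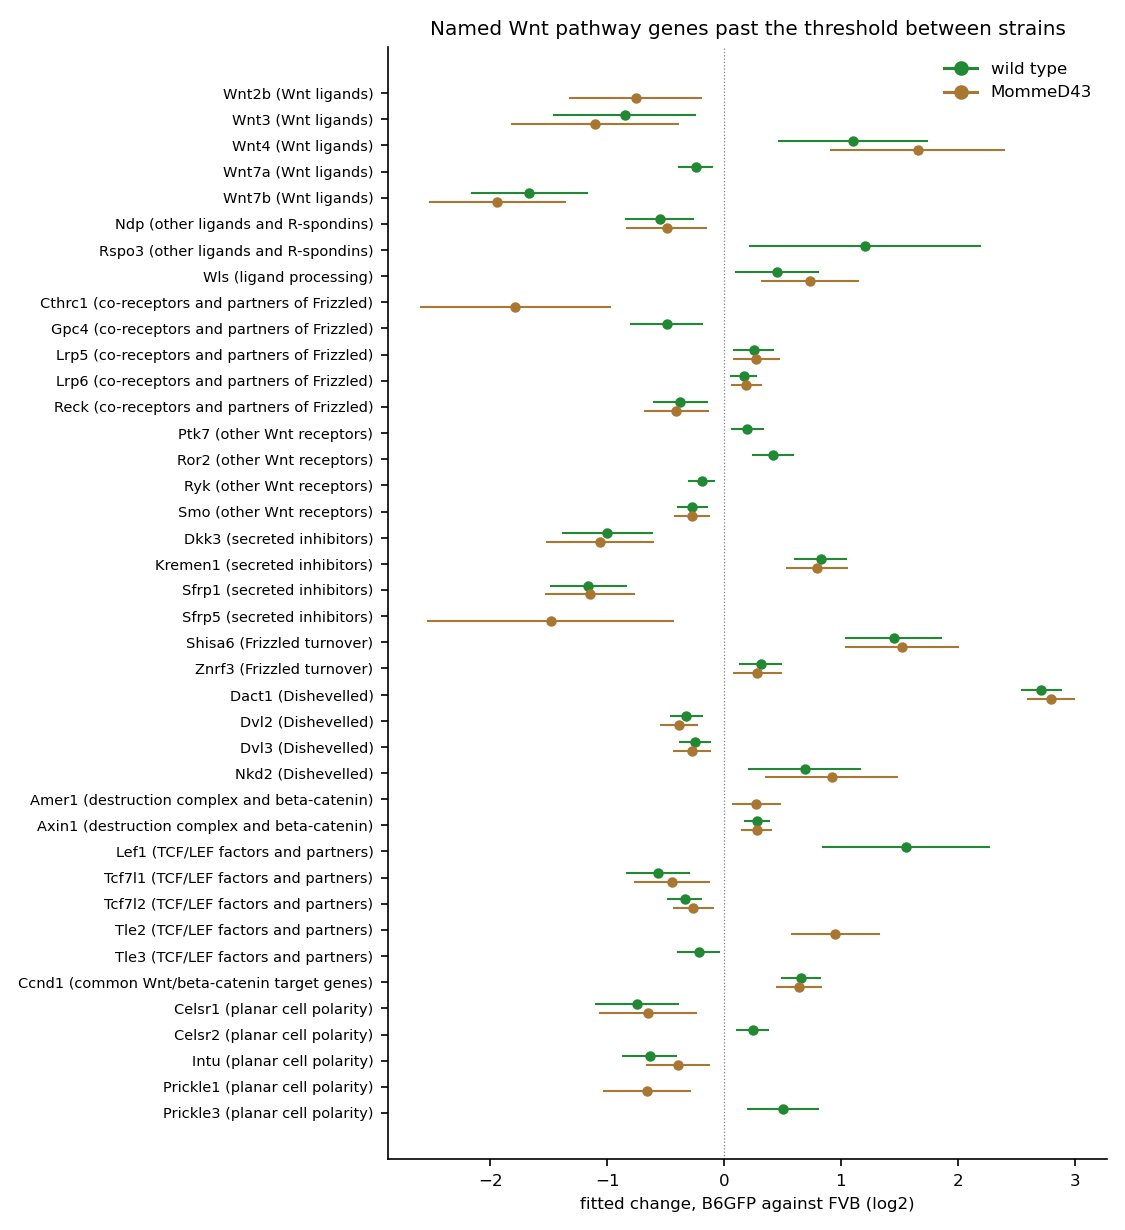
Fitted difference between B6GFP and FVB (log2, x axis) with 95% confidence intervals for the named Wnt pathway genes that passed an adjusted p of 0.05, in wild-type (green) and MommeD43 cells (brown), with the list of each gene in brackets. Kremen1, a membrane protein, stands on the list labelled secreted inhibitors. Dact1 lies farthest to the right (2.72 and 2.80), and Wnt7b lies at -1.67 and -1.94.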

How the data were processed

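RNA-seq of cultured NSCs was read from 1 table of 24 libraries and 14922 genes. The deposited values are log2 CPM: per the labels and the study's methods the authors trimmed reads (Trim Galore 0.4.4), aligned them to GRCm38.p6 (HISAT2 2.0.5), counted reads per gene, normalised and removed batch effects (limma 3.40.6). A refit on all columns gave batch coefficients of at most 7e-09, so batch had been removed before deposit. Since these values are not counts, limma 3.58.1 in R 4.3.3 was used, with group and batch as fixed terms, library quality weights, line as a block (correlation 0.0831), a mean-variance trend, 16 residual and 4.86 prior degrees of freedom, and Benjamini-Hochberg adjustment over all genes at 0.05. Group means ± SD are over 17 lines. The study calls its lines independent, but the labels do not tie them to animals, so p-values measure the spread between and within these cultures. The block correlation was 1 value for all genes, and at 0.0831 it counts repeats of a line almost as separate lines. Same-numbered lines did not deviate together (r from -0.484 to 0.138), so numbers were not used as pairs. The Frizzled members, gene lists and tests were chosen with earlier results of these data known. Every Frizzled gene is named; of each pathway list, at most the 4 called genes of lowest p per comparison or, with none called, the 2 of highest level; and for Fzd10 the 5 genes most correlated with it and the 3 nearest listed genes on each side. Gene lengths are the union of GENCODE M21 exons, and sequences and positions are from RefSeq on GRCm38.p6. Whether library kits kept strand is not given per library. The script was tested on simulated data. Alternatives changed weights, line block, filter (1 CPM in 4 libraries), pseudocount (1), centring, trend, columns, batches and lines.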

Additional observations from a re-analysis of the deposited data

Results flagged for a closer look

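Single lines stood apart from their group in 5 of 40 sets of lines (10 genes in 4 groups) by the size of the gap to the nearest line. Chance gives about 1 in 20 for a single set. The 40 sets share lines and are not independent, so the count cannot be set against that rate. B6GFP_WT replicate 4 was low for Fzd2 (2.997 log2 CPM, gap 0.883 of the range) and Fzd9 (5.45, 0.849), and high for Fzd3 (8.23, 0.837) and Fzd4 (3.66, 0.868). B6GFP_MD43 replicate 2 was high for Fzd7 (4.83, 0.872). These lines had the lowest quality weights. B6GFP_MD43 replicate 2 also held high neuronal markers, and B6GFP_WT replicate 4 held high Foxc1, while its Dcn (-5.25 log2 CPM), Col1a1 (-2.60) and Col3a1 (-1.15) lay below 1 CPM. The part of other cells in the values was not tested.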

How the results depend on the processing

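As a description of the contrast that chose it, the change of Fzd10 in FVB was -1.37 (without FVB_MD43 replicate 2) to -0.71 over the 17 fits that left out a line. No Frizzled gene passed with MommeD43 in B6GFP under any of them. In the counts that follow, Fzd10 is included as a description wherever FVB libraries enter. With equal weights 0 Frizzled genes passed in FVB, 1 between wild-type strains and 1 between MommeD43 strains, and 7 and 4 Wnt pathway genes passed between strains. Centring left 5 Frizzled genes between wild-type strains. Using all 24 columns, which counts the 2 averaged ones as data, gave 2 Frizzled genes in FVB, 10 between MommeD43 strains and 2 for the difference of the MommeD43 effects, with 5, 6 and 87 Wnt genes in FVB, in B6GFP and between MommeD43 strains. In batch 1 alone and batch 2 alone 0 Frizzled genes passed in FVB. Leaving out 1 line gave 0 to 1 Frizzled genes in FVB and 4 to 8 between wild-type strains (4 without B6GFP_WT replicate 1, 5 without replicate 3 or FVB_WT replicate 2). It gave 3 to 6 between MommeD43 strains and 0 to 1 for the difference of effects. That 1 was Fzd10 without FVB_MD43 replicate 2, a description. For Wnt genes the ranges were 0 to 8 in FVB, 0 to 2 in B6GFP, 27 to 39 between wild-type and 27 to 52 between MommeD43 strains (52 without B6GFP_MD43 replicate 3). Over all 14922 genes that last fit called 8179 between MommeD43 strains, where the main fit called 5124. The cause of these ranges was not tested. Over all genes, equal weights called 1, 0, 1259 and 1017 genes in FVB, in B6GFP and between the wild-type and MommeD43 strains, all 24 columns 510, 480, 6440 and 13991, and centring 19 in FVB.

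With the replicate number as a replicate block, the Fzd10 change was -0.86 in FVB and -0.22 in B6GFP (adjusted p = 0.74), 1 and 0 Frizzled genes passed, and the strain comparisons could not be fitted. Leaving out B6GFP_MD43 replicate 2 and B6GFP_WT replicate 4 together was chosen after seeing the data. Depth is unknown in absolute terms and batch 2 was shallowest, which limits low genes such as Fzd6 most.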
